A study of Homo sapiens with 9 samples.

Results

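The 40 genes described here encode sensors of double-stranded RNA, the proteins that pass their signal to the interferon genes, the receptors and factors of type I interferon, and interferon-stimulated genes. They were listed by name, and a gene counted as measured where a probe set carried its symbol and no other. Of the 40 genes, 36 had such a probe set, 1 each, among 14232 genes measured this way. The cells were HEK293, a human embryonic kidney cell line, and all 3 groups were harvested 48 h after transfection with stealth small interfering RNAs (siRNAs). The groups were siCTR (control siRNA), siDBC1 (against DBC1, the protein of CCAR2) and siZNF326 (against ZNF326, also named ZIRD), with 3 arrays each from independent experiments, 9 arrays in all. Every group received an siRNA, so a response to transfection that the groups share does not appear in a difference between them. No allele or clone other than the parental line was named for any group.

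Each value is the log2 expression level of a probe set on an exon array, as the authors normalized it, and a difference of 1 means a 2-fold difference. CCAR2 fell in siDBC1, with a change of −1.16 from siCTR (limma adjusted p = 0.0116). In the arrays labelled siZNF326, ZNF326 itself was no lower, differing from siCTR by 0.28 (limma adjusted p = 0.851), so that name is used here as a label of arrays. ZNF326 differed by 0.85 in siDBC1 (limma adjusted p = 0.844), and CCAR2 by 0.26 in the arrays labelled siZNF326 (adjusted p = 0.377). Array medians ran from 5.58 (siDBC1 replicate 2) to 5.90 (siZNF326 replicate 1). All 10 markers fixed for HEK293 read above the background reference described below. Of 8 haematopoietic markers 1 did (SPI1), of 4 plasmacytoid dendritic cell markers 2 and of 7 fibroblast markers 4. None of these markers passed limma's test in any comparison. NEFM, a neurofilament gene of the HEK293 list, differed by 1.72 in the arrays labelled siZNF326 without overlap with siCTR (limma unadjusted p = 0.00123, adjusted p = 0.158). The mean level of the HEK293 markers ran from 7.74 to 7.93 over the siCTR arrays, over siDBC1 between 7.61 and 8.12, and over the arrays labelled siZNF326 between 8.08 and 8.40. That of the haematopoietic markers ran from 3.51 to 3.68, from 3.60 to 3.82 and from 3.53 to 3.60, and PTPRC and LYZ among them stood below the median of the background reference in siCTR.

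Double-stranded RNA in the cytosol, a by-product of viral replication, is recognised by the helicases RIG-I (gene RIGI) and MDA5 (IFIH1), which signal through MAVS on mitochondria and the kinase TBK1 to the transcription factors IRF3 and IRF7. These factors switch on interferon beta, which is secreted and binds the receptor of IFNAR1 and IFNAR2. The receptor activates transcription factors, IRF9 among them, that bind the interferon-stimulated response element in the promoters of genes such as IFIT1, MX1 and ISG15. ADAR edits adenosines in double-stranded RNA of the cell itself and so keeps it from MDA5, and EIF2AK2 (the kinase PKR) stops translation when it binds such RNA. Longer small interfering RNAs can be seen by the same sensors, which is why interferon genes are a common check in siRNA experiments.

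The promoters of many of the interferon-stimulated genes carried the core of that response element, searched as GAAANNGAA on both strands with overlapping matches counted, and no other motif was searched. RefSeq windows of 300 bases (250 before and 50 after a start, GRCh38.p14) were matched by symbol for 30 of the 40 genes. Of these, 19 (63.3%) held at least 1 match, against 9.86% of the 27305 genes with a window, and 13 held 2 or more, against 0.861% of all genes. A match is a description of the letters and not a measured binding site, and no match says only that these letters are not in this window. The stretches below hold the matches, in capitals, with the bases around them, 5′ to 3′ on the strand of the gene. IFIT1 (chr10:89392493-89392544, plus strand), IFI44L (chr1:78620269-78620398, plus strand) and CXCL10 (chr4:76023695-76023733, minus strand) are shown because they are the interferon-stimulated genes with the smallest p in siDBC1.
IFIT1: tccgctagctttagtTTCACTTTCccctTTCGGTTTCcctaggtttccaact
IFI44L: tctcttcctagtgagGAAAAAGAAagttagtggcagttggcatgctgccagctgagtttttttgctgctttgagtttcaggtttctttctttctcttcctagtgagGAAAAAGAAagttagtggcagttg
CXCL10: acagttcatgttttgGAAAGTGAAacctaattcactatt
ISG15 (chr1:1013369-1013419, plus strand), IFIT3 (chr10:89327827-89327899, plus strand) and IFI6 (chr1:27672262-27672363, minus strand) are shown because they carry the same core and did not reach an unadjusted p under 0.05 in any comparison.
ISG15: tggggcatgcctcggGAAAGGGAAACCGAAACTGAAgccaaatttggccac
IFIT3: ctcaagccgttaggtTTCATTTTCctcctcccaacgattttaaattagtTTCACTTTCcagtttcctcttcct
IFI6: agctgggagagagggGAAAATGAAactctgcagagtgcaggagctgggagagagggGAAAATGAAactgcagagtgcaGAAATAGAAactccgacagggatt

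A background level was read from 220 probe sets of olfactory receptors, whose siCTR means had a median of 3.07 and a 95th percentile of 4.94. That these genes are silent in HEK293 was assumed and not tested, and some of them may be expressed. Probe sets differ in affinity, so the levels of genes were set against this reference and not ordered by abundance. In siCTR, 6 of the 36 measured genes stood at or below the olfactory median: the sensors RIGI and IFIH1, the interferon gene IFNB1, and IFIT2, IFI44 and CXCL10. Another 13 stood between the median and the 95th percentile, among them DHX58, TLR3, OAS1, OAS2, OAS3, OASL, MX1, MX2, RSAD2, IFIT3 and IFI44L. The other 17 stood above it, with siCTR means from 4.99 (IRF9) to 8.10 (ADAR). Of the 15 sensors, signal proteins, receptors and factors 10 were in this upper class, and of the 21 interferon-stimulated genes 7 were (ISG20, IFIT1, IFIT5, IFITM1, ISG15, IFI6 and IFI27).

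**Figure D1:**
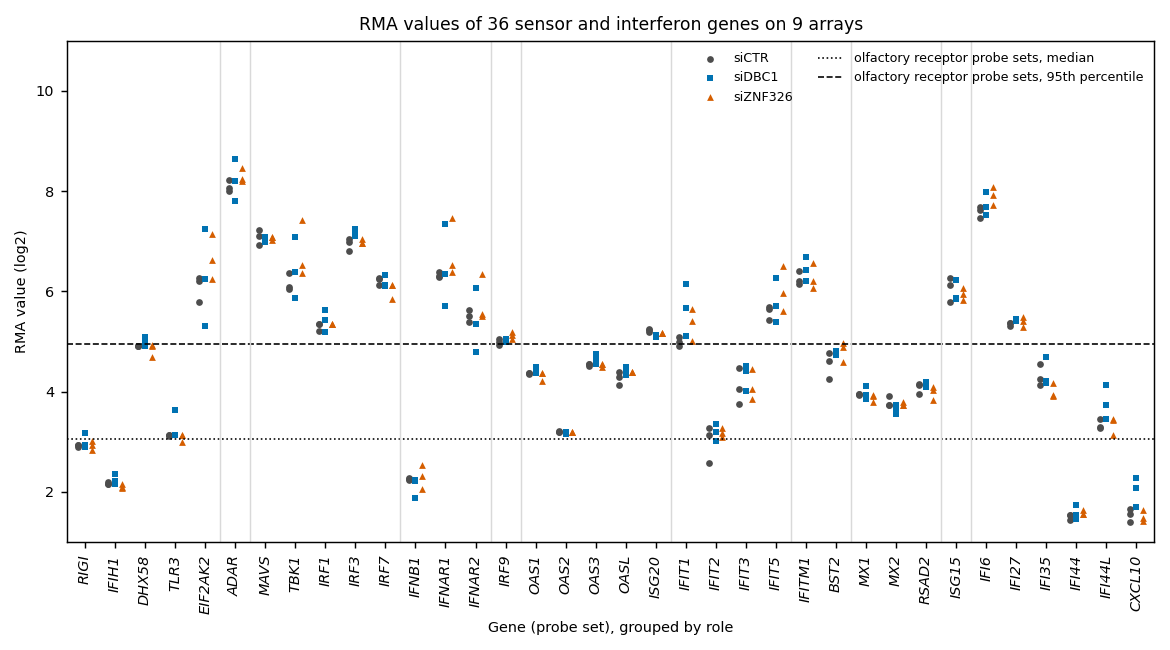
Level of each of the 36 measured genes on each of the 9 arrays (log2 expression, points coloured by siRNA group, genes by role), with lines at the median (3.07) and 95th percentile (4.94) of the siCTR means of 220 olfactory receptor probe sets. RIGI, IFIH1, IFNB1, IFIT2, IFI44 and CXCL10 have siCTR means at or below the lower line and 17 genes have them above the upper one.

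No sensor or interferon gene passed the test across all 22011 probe sets in any of the 3 comparisons. In siDBC1 against siCTR limma called 0 of 36 members, where 0.0363% of all probe sets were called, and the smallest adjusted p was 0.658 (CXCL10). At an unadjusted p under 0.05 there were 4 of 36, all higher (CXCL10, IRF3, IFI44L and IFIT1), where 6.18% of all probe sets reached it and 3.63% did so as higher. The siDBC1 and siCTR arrays did not overlap for 5 of 36, as for 8.84% of all probe sets. Of those 5, IRF3, IFIT1, IFI27 and CXCL10 were higher, a direction that 5.18% of all probe sets had, and ISG20 was lower. The differences ran from −0.16 (IFNB1) to 0.65 (IFIT1) with a median of 0.095, where the median over all probe sets was 0.014. More of them lay above 0, 28 of 36 (77.8%), than the 53.8% of all probe sets. The number above 0 was 23 when siDBC1 replicate 3 was left out, where 45.1% of all probe sets lay above 0. It was 26 to 29 when any other array was left out, where 50.3% to 61.1% of all probe sets did.

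The precision differed between the genes. The 95% interval of the siDBC1 difference lay within 2-fold of no difference for 32 of 36 genes, where it did for 84.8% of all probe sets. It lay within 1.5-fold for 26 of 36, and for 12419 of the 22011 probe sets. The 4 genes with an interval that reached past 2-fold were EIF2AK2, TBK1, IFNAR1 and IFIT1. All had siCTR means above the 95th percentile of the background reference, and each gene at or below it had an interval within 2-fold. Signal near background may understate a change there, so a narrow interval does not exclude a larger change in the transcript. The count of 4 genes at an unadjusted p under 0.05 was 1 without siCTR replicate 1, siCTR replicate 2, siDBC1 replicate 1 or siDBC1 replicate 3, and 2 without siCTR replicate 3. Of all probe sets, 4.2%, 4.45%, 4.76%, 9% and 6.35% reached it in these fits, in that order. Leaving out at least 1 of the other arrays raised the count, as the range in the closing section shows. With the median of each array as a covariate, an alternative chosen after seeing the data, limma called 1 member, IFIT1, at 0.60 (adjusted p = 0.0455), where 2.48% of all probe sets were called. Replicates came from separate experiments per the series design, so p-values measure the spread between these experiments.

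In the arrays labelled siZNF326 against siCTR, which share the siCTR arrays with the comparison above, limma called 0 of 36 members, where 0.15% of all probe sets were called. The smallest adjusted p was 0.587 (IFI6). None of the 36 reached an unadjusted p under 0.05, where 8.65% of all probe sets did. The groups did not overlap for 5 of 36, with TBK1, IRF9, IFI6 and IFI44 higher and ISG20 lower, where this held for 18.2% of all probe sets. Differences ran from −0.31 (IFI35) to 0.61 (TBK1) with a median of 0.025, beside 0.032 over all probe sets. Of the members, 21 of 36 (58.3%) lay above 0, where 56.6% of all probe sets did. This number turned to 15 after quantile normalization and to 12 with arrays centred on their medians. Of all probe sets, 42.1% and 40.4% then lay above 0. In siDBC1 the number was 28 under all 3 scalings, where 53.8%, 50.4% and 49.8% of all probe sets lay above 0. In the arrays labelled siZNF326 centring turned the sign of 9 members, IFI27, IFI44, IFI44L, IFIT3, IFITM1, IFNB1, IRF1, IRF3 and RIGI. Their differences there have no settled direction. The interval lay within 2-fold for 31 of 36, where it did for 81.0% of all probe sets. The other genes were EIF2AK2, TBK1, IFNAR1, IFNAR2 and IFIT5. The count of 0 at an unadjusted p was 1 without siCTR replicate 3, without siDBC1 replicates 2 or 3, and without siZNF326 replicates 2 or 3, each left out alone.

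The arrays labelled siZNF326 were also set directly against siDBC1. In limma 0 of 36 members were called, where 0.00909% of all probe sets were, and the smallest adjusted p was 0.617 (CXCL10). At an unadjusted p under 0.05 there were 2, CXCL10 and IFI44L, both lower in the arrays labelled siZNF326, where 7.31% of all probe sets reached it. The groups did not overlap for 5 of 36, with IRF9 and ISG20 higher and IRF3, IFI35 and CXCL10 lower, where this held for 9.45% of all probe sets. Of the members, 15 of 36 (41.7%) lay above 0, where 55.4% of all probe sets did, and the members' median difference was −0.031, beside 0.024. After quantile normalization 13 of 36 lay above 0 (43.7% of all probe sets) with a median of −0.096, and with arrays centred on their medians 10 did (40.7%) with a median of −0.11. The count of 2 was 5 without siDBC1 replicate 2 and 4 without siDBC1 replicate 3. It was 1 without siCTR replicate 2, siCTR replicate 3, siDBC1 replicate 1 or any siZNF326 array.

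**Figure D2:**
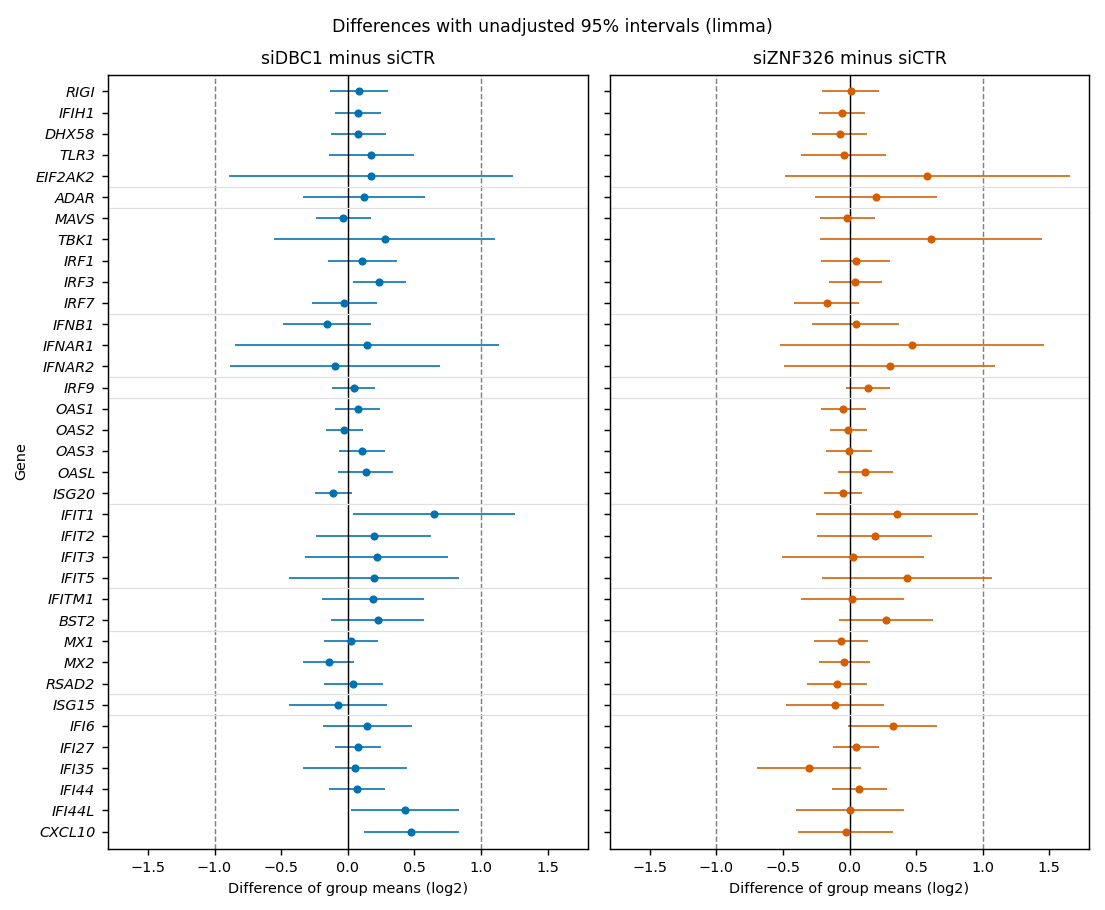
Difference from siCTR (log2, points) with its unadjusted 95% interval from limma (lines) for each of the 36 measured genes, by role, in siDBC1 and in the arrays labelled siZNF326, with dashed lines at a 2-fold difference. The intervals of CXCL10, IRF3, IFI44L and IFIT1 in siDBC1 do not hold 0, and none of the 36 genes had an adjusted p under 0.05.

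Among the sensors, the helicase genes RIGI and IFIH1 read near or below the median of the background reference in every group. RIGI, which recognises RNA with a 5′ triphosphate, stood at 2.93, 2.90 and 2.93 in siCTR, at 2.93, 2.91 and 3.18 in siDBC1 and at 3.01, 2.93 and 2.84 in the arrays labelled siZNF326. Its 3 groups overlapped, with siDBC1 replicate 3 the highest, and the differences from siCTR were 0.084 and 0.0081. IFIH1, the sensor of long double-stranded RNA, read 2.19, 2.16 and 2.16 in siCTR, 2.36, 2.16 and 2.22 in siDBC1 and 2.09, 2.16 and 2.10 in the arrays labelled siZNF326. Again the groups overlapped, with siDBC1 replicate 1 the highest. The differences of IFIH1 were 0.075 in siDBC1 (95% interval −0.098 to 0.25) and −0.054 in the arrays labelled siZNF326 (−0.23 to 0.12).

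TLR3, the receptor of double-stranded RNA in endosomes, stood at 3.13, 3.13 and 3.12 in siCTR, at 3.15, 3.13 and 3.64 in siDBC1 and at 3.13, 2.99 and 3.13 in the arrays labelled siZNF326. A single array, siDBC1 replicate 3, stood apart. DHX58 (LGP2, a helicase that modulates the other sensors) had the same value of 4.92 on all 3 siCTR arrays, and differed by 0.079 in siDBC1 and by −0.073 in the arrays labelled siZNF326. Such repeated values were common: an identical value on 2 or more arrays was found for 23 of the 36 genes (63.9%), and on 3 or more for 14 (38.9%), where 41.4% and 23.7% of all probe sets did. OAS2 had 1 value on 7 of the 9 arrays. For these genes a small SD may not measure how precisely the level was read.

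EIF2AK2, the kinase PKR, was the sensor with a level above the reference and the one with the widest spread. It read 6.21, 5.78 and 6.27 in siCTR, 6.24, 5.31 and 7.24 in siDBC1 and 7.14, 6.24 and 6.63 in the arrays labelled siZNF326. The siDBC1 group held both the lowest and the highest of the 9 values, so it spanned the whole of siCTR. The difference from siCTR was 0.17 in siDBC1 (95% interval −0.89 to 1.24) and 0.58 in the arrays labelled siZNF326 (−0.48 to 1.65), and both intervals reached past 2-fold. ADAR, the editing enzyme, read 8.07, 8.01 and 8.23 in siCTR, 8.21, 7.81 and 8.64 in siDBC1 and 8.46, 8.21 and 8.23 in the arrays labelled siZNF326. Its order of arrays within siDBC1 was that of EIF2AK2, and its differences were 0.12 (95% interval −0.34 to 0.58) and 0.20 (−0.26 to 0.66).

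All 5 signal proteins stood above the reference in siCTR. IRF3, the factor that TBK1 phosphorylates, read 6.82, 6.99 and 7.05 in siCTR, 7.22, 7.10 and 7.24 in siDBC1 and 7.05, 6.97 and 6.96 in the arrays labelled siZNF326. Every siDBC1 value lay above every siCTR value, with siCTR replicate 3 and siDBC1 replicate 2 close together. The mean went from 6.95 ± 0.12 (SD, n = 3) to 7.19 ± 0.075, a difference of 0.24 (95% interval 0.038 to 0.43, 1.18-fold). That did not pass over all probe sets (limma unadjusted p = 0.0252, adjusted p = 0.731). A second probe set named for both IRF3 and its neighbour BCL2L12 differed by 0.33 in siDBC1 (limma unadjusted p = 0.0223, adjusted p = 0.716). It differed by 0.34 in the arrays labelled siZNF326 (limma unadjusted p = 0.0196, adjusted p = 0.445), and both groups lay wholly above siCTR. The probe set of IRF3 alone differed by 0.044 in the arrays labelled siZNF326.

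TBK1, the kinase itself, read 6.09, 6.05 and 6.37 in siCTR, 6.38, 5.87 and 7.08 in siDBC1 and 7.43, 6.53 and 6.37 in the arrays labelled siZNF326. The siDBC1 values spanned those of siCTR, and the siZNF326 values lay above those of siCTR by a margin that was small except on replicate 1. The difference of 0.61 in the arrays labelled siZNF326 was the highest of the 36 in that comparison, with a 95% interval from −0.22 to 1.44 (limma adjusted p = 0.672). MAVS, the mitochondrial adaptor, differed by −0.033 in siDBC1 (95% interval −0.24 to 0.17) and by −0.016 in the arrays labelled siZNF326 (−0.22 to 0.19).

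IRF7, which amplifies interferon production, read 6.13, 6.27 and 6.24 in siCTR, 6.14, 6.32 and 6.11 in siDBC1 and 5.86, 6.14 and 6.14 in the arrays labelled siZNF326. Its groups overlapped, and the differences were −0.025 and −0.17. IRF1, another factor that binds interferon promoters, had the value 5.35 on 5 arrays, including all 3 labelled siZNF326, and differed by 0.11 and 0.045.

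IFNB1, the gene of interferon beta, stood below the olfactory median. It read 2.29, 2.23 and 2.26 in siCTR, 2.21, 1.87 and 2.23 in siDBC1 and 2.32, 2.07 and 2.53 in the arrays labelled siZNF326. No array of any group stood above the reference median, and the groups overlapped. The difference in siDBC1 was −0.16 (95% interval −0.48 to 0.17) and that in the arrays labelled siZNF326 0.046 (−0.28 to 0.37).

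The interferon receptor genes varied between arrays of a group, as EIF2AK2 did. IFNAR1 read 6.28, 6.30 and 6.39 in siCTR, 6.36, 5.71 and 7.35 in siDBC1 and 7.47, 6.52 and 6.39 in the arrays labelled siZNF326. IFNAR2 read 5.38, 5.50 and 5.63 in siCTR, 5.35, 4.79 and 6.08 in siDBC1 and 6.34, 5.55 and 5.52 in the arrays labelled siZNF326. For both genes siDBC1 replicate 2 was the lowest of the 9 arrays and siZNF326 replicate 1 the highest. Differences were 0.15 and 0.47 for IFNAR1, and −0.097 and 0.30 for IFNAR2, each with a 95% interval that held 0. A probe set shared by IFNAR2 and its neighbour IL10RB differed by 0.92 in the arrays labelled siZNF326 (limma unadjusted p = 0.019, adjusted p = 0.443).

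Of the factors that carry the receptor's signal, IRF9 had a probe set of its own and STAT2 was not analysed here. IRF9 read 4.98, 5.04 and 4.93 in siCTR, 5.04, 4.99 and 5.05 in siDBC1 and 5.18, 5.13 and 5.06 in the arrays labelled siZNF326. The siDBC1 values overlapped those of siCTR, and all 3 siZNF326 values lay above both groups by a narrow margin. The difference in the arrays labelled siZNF326 was 0.14 (95% interval −0.023 to 0.30, limma adjusted p = 0.632).

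Among the interferon-stimulated genes, the IFIT family, whose proteins bind viral RNA that lacks the cap of host messages, had a median difference of 0.21 in siDBC1 and of 0.27 in the arrays labelled siZNF326, with 4 of 4 members above 0 in each (3 of 4 in the latter with arrays centred on their medians). Over all probe sets 53.8% and 56.6% of differences lay above 0, and 40.4% in the latter with centring. The siCTR means of IFIT2 and IFIT3 lay below the 95th percentile of the background reference. None of the 4 IFIT genes passed the test. IFIT1 read 4.99, 4.92 and 5.09 in siCTR, 5.67, 5.12 and 6.15 in siDBC1 and 5.64, 5.41 and 5.01 in the arrays labelled siZNF326. The siDBC1 arrays all lay above siCTR but were far apart, with replicate 2 only just above the siCTR values, and the arrays labelled siZNF326 overlapped both groups. The mean went from 5.0 ± 0.086 (SD, n = 3) to 5.65 ± 0.51 in siDBC1, a difference of 0.65 (SE 0.26, 95% interval 0.040 to 1.25, 1.57-fold), the highest of the 36. It did not pass (limma unadjusted p = 0.0396, adjusted p = 0.783), nor did the difference of 0.36 in the arrays labelled siZNF326 (adjusted p = 0.730).

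IFIT5 read 5.43, 5.65 and 5.69 in siCTR, 5.72, 5.39 and 6.27 in siDBC1 and 6.50, 5.98 and 5.60 in the arrays labelled siZNF326. Its groups overlapped, with the lowest value on siDBC1 replicate 2 and the highest on siZNF326 replicate 1. IFIT3 differed by 0.22 and 0.028, and IFIT2, at the background reference, by 0.20 and 0.19.

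CXCL10, a chemokine that draws T cells, had the smallest p of the 36 genes in siDBC1, at a level below the olfactory median. It read 1.66, 1.41 and 1.56 in siCTR, 2.07, 2.28 and 1.70 in siDBC1 and 1.48, 1.41 and 1.65 in the arrays labelled siZNF326. All siDBC1 values lay above all others, the lowest by a small step. The difference was 0.48 (95% interval 0.12 to 0.83) from siCTR in siDBC1 (limma unadjusted p = 0.0149, adjusted p = 0.658) and −0.51 in the arrays labelled siZNF326 against siDBC1 (unadjusted p = 0.0113, adjusted p = 0.617). Each of the 9 values stood below the olfactory median of 3.07, so a level of the transcript above background was not shown on any array.

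IFI44L, an interferon-stimulated gene of incompletely known function, read 3.46, 3.29 and 3.27 in siCTR, 3.73, 3.45 and 4.13 in siDBC1 and 3.46, 3.14 and 3.44 in the arrays labelled siZNF326. The lowest siDBC1 value lay just under the highest siCTR value, so the groups overlapped. The difference in siDBC1 was 0.43 (95% interval 0.024 to 0.84, limma unadjusted p = 0.0405, adjusted p = 0.783). The difference between the arrays labelled siZNF326 and siDBC1 was −0.42 (unadjusted p = 0.0425, adjusted p = 0.678). All values lay between the median and the 95th percentile of the background reference. IFI44, a related gene, had group means of 1.51, 1.58 and 1.58 and differed by 0.069 and 0.073.

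**Figure D3:**
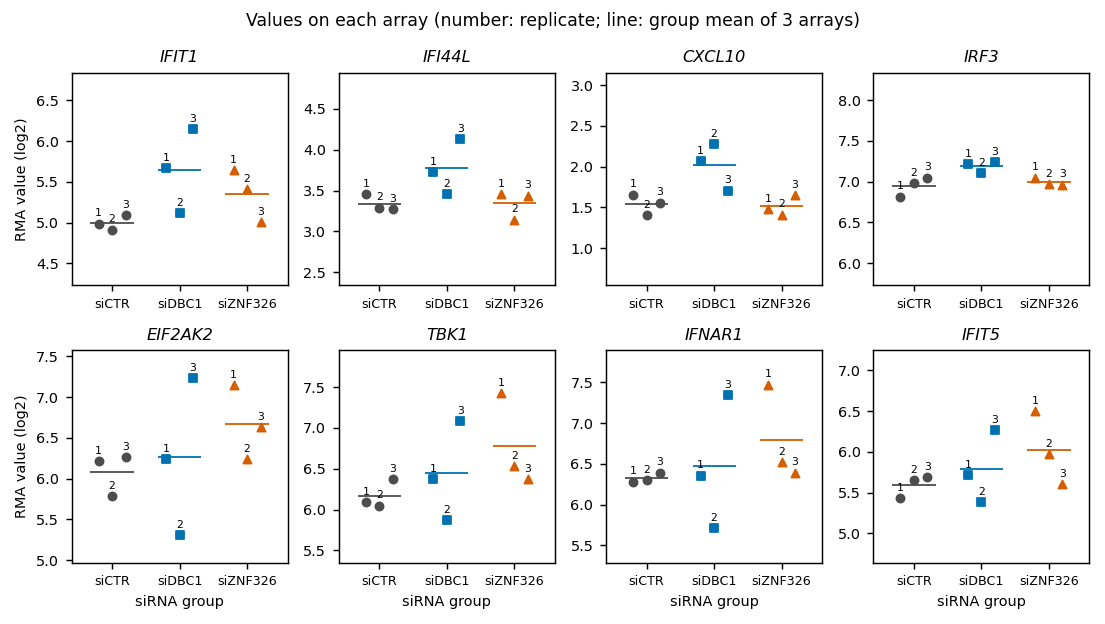
Value on each of the 9 arrays (log2, y axes differ in position but not in span) for IFIT1, IFI44L, CXCL10 and IRF3, which reached an unadjusted p under 0.05 in siDBC1, and for EIF2AK2, TBK1, IFNAR1 and IFIT5, by siRNA group, with numbers marking replicates and lines the means of 3 arrays. The siDBC1 arrays of IFIT1, at 5.67, 5.12 and 6.15, lie above the siCTR arrays, while those of EIF2AK2, at 6.24, 5.31 and 7.24, lie on both sides of them.

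ISG15, the ubiquitin-like protein that is among the most strongly induced by interferon, was not higher in either group. It read 5.78, 6.27 and 6.13 in siCTR, 5.85, 6.24 and 5.87 in siDBC1 and 5.84, 5.96 and 6.07 in the arrays labelled siZNF326. Its groups overlapped, and its differences were −0.075 (95% interval −0.44 to 0.29) and −0.11 (−0.47 to 0.26). IFI6, a mitochondrial protein that protects cells from apoptosis, read 7.46, 7.68 and 7.62 in siCTR, 7.68, 7.53 and 7.98 in siDBC1 and 7.93, 7.72 and 8.08 in the arrays labelled siZNF326. The last group lay wholly above siCTR, by 0.32 in the mean (95% interval −0.0090 to 0.66), and the siDBC1 group overlapped both. The limma adjusted p of IFI6 was 0.587 in the arrays labelled siZNF326 and 0.971 in siDBC1.

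The OAS enzymes bind double-stranded RNA and make the oligoadenylate that activates RNase L, and OASL is a relative without that activity. OAS1 read 4.37, 4.37 and 4.36 in siCTR, 4.49, 4.46 and 4.37 in siDBC1 and 4.22, 4.37 and 4.37 in the arrays labelled siZNF326. Its values ran from 4.22 to 4.49, below the 95th percentile of the reference, and the groups overlapped. OAS3 differed by 0.11 and −0.0066, OASL by 0.13 and 0.12, and OAS2 by −0.026 and −0.0087. ISG20, an exonuclease of single-stranded RNA, read 5.22, 5.26 and 5.19 in siCTR, 5.14, 5.12 and 5.09 in siDBC1 and 5.17 on all 3 arrays labelled siZNF326. Both siRNA groups lay below every siCTR array, by 0.11 and 0.050 in the mean. Neither difference passed (limma adjusted p = 0.924 and 0.829), and in size they were 1.08-fold and 1.04-fold.

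MX1, a GTPase that traps viral nucleoproteins, read 3.95, 3.94 and 3.92 in siCTR, 4.11, 3.92 and 3.85 in siDBC1 and 3.91, 3.79 and 3.92 in the arrays labelled siZNF326. The groups overlapped and the differences were 0.021 (95% interval −0.18 to 0.22) and −0.065 (−0.27 to 0.14). Its paralog MX2 differed by −0.14 and −0.039, and RSAD2 (viperin, which makes a chain-terminating nucleotide) by 0.041 and −0.094. BST2 (tetherin, which holds budding virus at the membrane) read 4.26, 4.61 and 4.78 in siCTR, 4.77, 4.74 and 4.82 in siDBC1 and 4.97, 4.89 and 4.60 in the arrays labelled siZNF326. The groups of BST2 overlapped, with siCTR replicate 1 the lowest of the 9 arrays, and the differences were 0.23 and 0.27, the latter 0.13 without siCTR replicate 1. IFITM1, which blocks viral entry, differed by 0.19 and 0.021.

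IFI35, an interferon-induced leucine zipper protein, read 4.55, 4.25 and 4.14 in siCTR, 4.69, 4.22 and 4.18 in siDBC1 and 3.94, 3.92 and 4.17 in the arrays labelled siZNF326. The siZNF326 values lay below all siDBC1 values and overlapped those of siCTR. The difference between these siRNA groups was −0.36 (95% interval −0.75 to 0.033, limma adjusted p = 0.699). IFI27, a small mitochondrial protein, lay higher in all 3 siDBC1 arrays than in siCTR, by 0.077 in the mean.

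In all, 7 probe sets named a member together with another gene, and such a value does not belong to 1 gene alone. IFITM2, IFITM3 and USP18 were measured in no other way. Both probe sets of IFITM2 are shared with IFITM3, its near-identical neighbour in blocking viral entry. The first ran from 5.17 to 5.52 over the 9 arrays, above the 95th percentile of the background reference. It differed by −0.088 in siDBC1 (limma adjusted p = 0.985) and by −0.063 in the arrays labelled siZNF326 (limma adjusted p = 0.901). The second read 2.53, 2.53 and 2.35 in siCTR, 3.18, 4.31 and 2.76 in siDBC1 and 2.80, 2.55 and 3.78 in the arrays labelled siZNF326. It differed by 0.95 in siDBC1 (limma unadjusted p = 0.062, adjusted p = 0.844) and by 0.58 in the arrays labelled siZNF326 (adjusted p = 0.732). Both of these groups lay wholly above siCTR, with 1 high array in each, and its siCTR mean lay below the olfactory median. USP18, which removes ISG15 from proteins, shares its probe set with the pseudogene USP41P, and that probe set ran from 7.61 to 7.84. It differed by −0.11 in siDBC1 (limma adjusted p = 0.928), where all values lay below those of the other groups. The probe set that EIF2AK2 shares with ARL14EP ran from 5.74 to 6.70, and the one that BST2 shares with PLVAP from 5.13 to 5.33.

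Several of these genes were high or low on the same arrays. The arrays siDBC1 replicate 3 and siZNF326 replicate 1 had the highest medians over all probe sets, 5.89 and 5.90, and siDBC1 replicate 2 had the lowest, 5.58. EIF2AK2, TBK1, IFNAR1, IFNAR2, IFIT5 and ADAR had their highest values on 1 of the first pair of arrays and their lowest on the last. Of the 36 genes, 9 had their highest value on siDBC1 replicate 3, 8 on siDBC1 replicate 1, 6 on siZNF326 replicate 1 and 5 on siDBC1 replicate 2. The lowest value was on siDBC1 replicate 2 for 8 genes, on siZNF326 replicate 1 and siCTR replicate 2 for 6 each, and on siCTR replicate 1 for 5. So siZNF326 replicate 1 held as many of the lowest values as of the highest. The same counts over all probe sets were not computed. The median distance of the 36 genes from the siCTR mean was 0.10, −0.011 and 0.12 on the siDBC1 arrays, beside 0.011, −0.060 and 0.085 over all probe sets. On the arrays labelled siZNF326 it was 0.078, 0.011 and 0.0083, beside 0.075, 0.019 and 0.0034. The part of the array medians in these differences was not tested beyond the covariate given above.

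**Figure D4:**
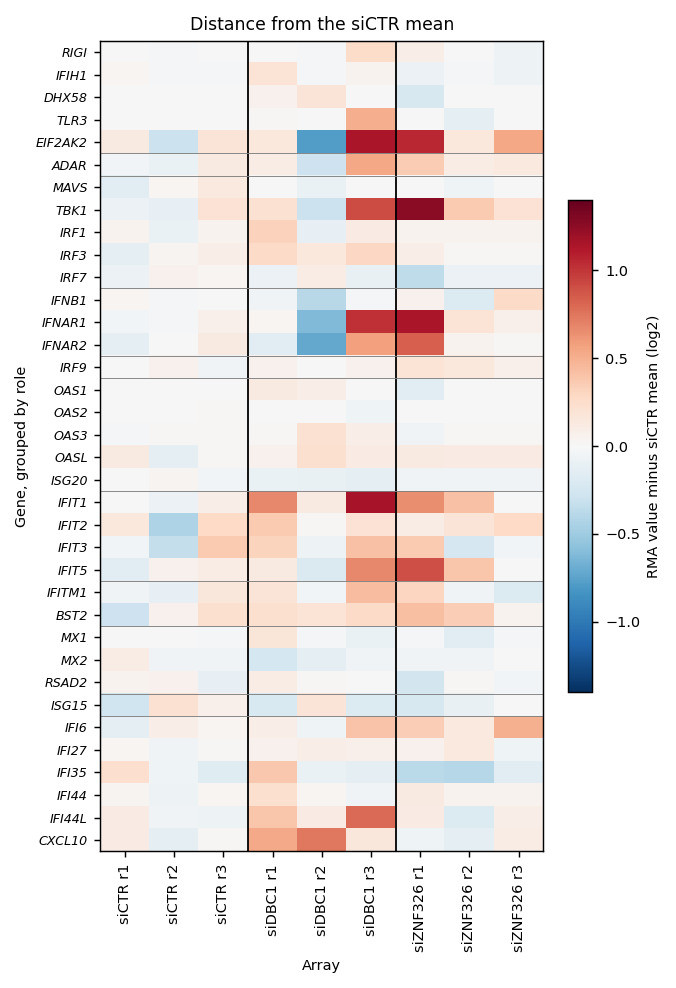
Value of each of the 36 measured genes minus its siCTR mean on each of the 9 arrays (log2, red above and blue below 0), with genes by role in rows and arrays in columns, r marking the replicate. EIF2AK2, TBK1, IFNAR1, IFNAR2 and IFIT5 are higher on siDBC1 replicate 3 and siZNF326 replicate 1 and lower on siDBC1 replicate 2.

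Split by role, the 21 interferon-stimulated genes had a median difference of 0.11 in siDBC1, with 17 above 0, and the 15 other genes one of 0.084, with 11 above 0. In the arrays labelled siZNF326 the medians were 0.0055 (11 of 21 above 0) and 0.045 (10 of 15), and turned to −0.028 and −0.011 after quantile normalization. The mean difference of each of the 5 sensors was above 0 in siDBC1, with a median of 0.084, as it was for 53.8% of all probe sets. For 0 of the 5 did the groups separate or the difference pass, and in the arrays labelled siZNF326 the mean difference was above 0 for 2 of 5, with a median of −0.044. Of the 18 measured genes whose promoter window held the core GAAANNGAA, 16 lay above 0 in siDBC1, with a median of 0.16. Of the 10 whose window held none, 8 did, with a median of 0.079, where 53.8% of all probe sets lay above 0. In the arrays labelled siZNF326 the same medians were 0.013 and 0.046, and turned to −0.027 and −0.0020 after quantile normalization. The split by core largely repeated the split by role. The 18 genes were interferon-stimulated genes apart from IFIH1, TLR3 and EIF2AK2, and among the 10 only OAS1 and IFI35 were. All of these are descriptions of lists, with no test.

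Other genes of the pathway were taken from a list of 110 further sensors, adaptors, kinases, receptors and interferon-stimulated genes, of which 86 had a probe set of their own. None of the 86 passed limma's test in any comparison, and 10, 5 and 3 of them reached an unadjusted p under 0.05 in siDBC1, in the arrays labelled siZNF326 and between these groups. Over all probe sets 6.18%, 8.65% and 7.31% reached it, so the 10 of 86 lie above that share and the 5 and 3 below theirs. In siDBC1 9 of the 10 were higher, where 3.63% of all probe sets reached it as higher. There 65 of 86 (75.6%) differences lay above 0, with a median of 0.073, beside 53.8% and 0.014 over all probe sets. In the arrays labelled siZNF326 4 of the 5 were higher, and 54 of 86 (62.8%) lay above 0, with a median of 0.035, beside 56.6% and 0.032 over all probe sets. All 3 between the siRNA groups were lower in the arrays labelled siZNF326.

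IFI30, a lysosomal thiol reductase of antigen processing that interferon gamma induces, had the smallest p of the 86 in siDBC1. It read 7.75, 8.03 and 8.13 in siCTR, 8.77, 8.54 and 8.91 in siDBC1 and 8.11, 7.81 and 7.86 in the arrays labelled siZNF326. Every siDBC1 value lay above every other value. The differences were 0.77 in siDBC1 (1.71-fold, limma unadjusted p = 0.000812, adjusted p = 0.283), −0.043 in the arrays labelled siZNF326 and −0.81 between the latter and siDBC1 (adjusted p = 0.290). UBE2L6, the enzyme that conjugates ISG15, also had its highest values in siDBC1, with a difference of 0.32 in siDBC1 (adjusted p = 0.628) and −0.32 in the arrays labelled siZNF326 against siDBC1 (adjusted p = 0.626).

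MYD88, the adaptor of most Toll-like receptors though not of TLR3, read 5.87, 5.97 and 6.17 in siCTR, 6.28, 6.31 and 6.31 in siDBC1 and 6.55, 6.53 and 6.44 in the arrays labelled siZNF326. The 3 groups did not overlap, in that order. Its differences from siCTR were 0.30 in siDBC1 (limma adjusted p = 0.598) and 0.50 in the arrays labelled siZNF326 (1.42-fold, adjusted p = 0.109). In the latter arrays JAK1, a kinase of the interferon receptors, differed by 0.64 (adjusted p = 0.487) and ADARB1, the paralog of ADAR, by 0.36 (adjusted p = 0.527). CXCL11, a chemokine that shares the receptor of CXCL10, read 2.43, 3.13 and 2.32 in siCTR, 3.18, 4.05 and 3.61 in siDBC1 and 1.61, 2.49 and 2.10 in the arrays labelled siZNF326. Its siCTR mean lay below the olfactory median, and the siDBC1 arrays lay above all others, as they did for CXCL10. The difference was 0.98 in siDBC1 (adjusted p = 0.669) and −1.55 in the arrays labelled siZNF326 against siDBC1 (adjusted p = 0.391).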

How the data were processed

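The deposited values are log2 expression values, 1 per probe set and array, that the authors computed with RMA on build hg18, per the submitters' processing notes. RMA corrects background, normalizes between arrays and summarises probes. Its version and any filter are not given in the sources used here. Base 2 was taken from the method and the spread of values, and no detection calls were used. Array medians still differed after the authors' normalization. Array numbers, not read depth, limit the precision. A single gene symbol was attached to 14432 of the 22011 probe sets, several symbols to 2408 and no symbol to 5171, and 14404 symbols were checked through gene identifiers, with 0 updated.

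All probe sets entered 1 limma model with the 3 groups (R 4.3.3, limma 3.58.1, lmFit and eBayes), with Benjamini-Hochberg adjustment within each comparison and a call at an adjusted p below 0.05. Intervals are unadjusted 95% moderated intervals. The fit was tested on simulated data. Values on every array are given for the 5 genes with the smallest p of each comparison and for genes picked by role, and the other genes are given by differences or ranges. Further genes of the pathway are named for the 3 smallest p of a comparison. The members and lists were chosen with earlier results of these data known. Deviations of same-numbered arrays had correlations from −0.30 to 0.40 over 9 pairs, without a common direction. Numbers were not used as a block in the main fit. Alternatives were quantile normalization, centring on array medians, leaving out probe sets with a mean in the lowest 25%, a fit of only the groups compared, a replicate block, eBayes with trend and robust settings, and leaving out each array. Protein sequences were not used here.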

Additional observations from a re-analysis of the deposited data

How the results depend on the processing

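Limma called 0 members in each of the 15 planned settings and each comparison. With the array median in the model as a covariate, an alternative added after the data were seen, it called 1 in siDBC1 (IFIT1). For the 11 members among the 5 smallest p of a comparison, 234 of 235 values kept their direction and their side of the threshold, 0 reversed, and that of IFIT1 passed. Over all 36 members, differences in the arrays labelled siZNF326 changed sign for 6 against siCTR and 2 against siDBC1 after quantile normalization, and for 9 and 5 with centring, and for 0 in siDBC1 against siCTR. The median difference of the members in the arrays labelled siZNF326 against siCTR was −0.027 after quantile normalization, −0.067 with arrays centred on their medians and −0.019 with the covariate. Against siDBC1 it was −0.096 and −0.11 under the first 2 of these. Members at an unadjusted p under 0.05 in siZNF326 against siDBC1 numbered 4 after quantile normalization, 4 with centring, 6 with the covariate, 0 with dim probe sets left out and 1 with only the 2 groups compared. In siDBC1 against siCTR they numbered 2 with dim probe sets left out, a filter that kept 24 members and 16508 probe sets, and 1 with only the 2 groups compared. In siZNF326 against siCTR they numbered 1 with only the 2 groups compared and 1 with a replicate block. Leaving out 1 array at a time gave 1 to 5 such members in siDBC1, 0 to 1 in siZNF326 against siCTR and 1 to 5 in siZNF326 against siDBC1. The cause of these moves was not tested. Of 9 same-numbered pairs of arrays, 3 had a correlation of deviations over 0.1, and the block changed no call among the members. The pairs of replicate 2 had correlations of 0.19, 0.096 and 0.40, and those of replicate 3 had 0.25, −0.18 and −0.30. The choice between probe sets of a gene was not run, since no member had more than 1 of its own. Signal over background limits the genes at or below the olfactory reference, whose differences may understate any change.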
